A study of Mus musculus with 15 samples.

Results

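The Obox genes measured in mouse zygotes and 2-cell embryos with and without maternal Usp16 were Obox1, Obox2, Obox3, Obox5 and Obox6. They were taken as all rows of the deposited expression table whose symbol is Obox followed by a digit, which gave 5 of the 14392 listed genes. RNA-seq covered zygotes and 2-cell embryos of both genotypes, WT and cKO, with 2 libraries in each of the 4 groups and 10 pooled embryos per library. WT embryos came from Usp16+/+ mothers, and cKO embryos from Usp16 fl/fl;Gdf9-Cre mothers on the same C57BL/6 background. Gdf9-Cre is active in oocytes from the primordial follicle stage, so the maternal Usp16 allele was lost before fertilization. The fathers were WT, and cKO embryos therefore carried an intact paternal allele. All embryos came from young superovulated females and, per the labels, were cultured in KSOM medium and freed of the zona pellucida with acid medium. USP16 removes ubiquitin from lysine 119 of histone H2A, and the comparison asks how embryos that start without it change their transcripts at zygotic genome activation (ZGA).

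Obox stands for oocyte-specific homeobox. The genes encode transcription factors with a homeodomain of the PRD-like type and form a rodent cluster beside Crx, a photoreceptor homeobox gene to which they are related. Some members are stored as maternal mRNAs in the growing oocyte, whereas others are transcribed by the embryo when its genome is switched on. Members of the family bind regulatory DNA of early zygotic genes and act redundantly in ZGA.

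The cluster lies on chromosome 7 in the mm9 build (GENCODE M1 annotation). Obox2 is at chr7:15939386-15983894 on the + strand, Obox3 at chr7:16065174-16225251 on the − strand, Obox1 at chr7:16097689-16142215 on the + strand, Obox5 at chr7:16335483-16345149 on the + strand and Obox6 at chr7:16418595-16425027 on the − strand. The 3 members on the + strand had high levels in zygotes and the 2 on the − strand were high in 2-cell embryos, as described below. All 44527 bases of the Obox1 gene lay inside the span of Obox3 on the opposite strand, with 0 bases of exon in common. The start of the coding sequences is printed because it shows how alike the members are, which bears on how well reads can be assigned to them. It comes from the GENCODE M1 transcripts and covers coding bases 1 to 120, or 28 to 147 in Obox6, and capitals mark bases that differ from Obox1.
Obox1: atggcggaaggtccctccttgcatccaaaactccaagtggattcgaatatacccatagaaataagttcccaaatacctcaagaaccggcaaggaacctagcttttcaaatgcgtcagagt
Obox2: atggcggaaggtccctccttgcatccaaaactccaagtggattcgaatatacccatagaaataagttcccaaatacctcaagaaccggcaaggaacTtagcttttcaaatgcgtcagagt
Obox3: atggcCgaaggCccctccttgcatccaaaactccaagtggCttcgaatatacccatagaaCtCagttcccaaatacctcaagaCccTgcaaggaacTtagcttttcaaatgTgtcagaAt
Obox5: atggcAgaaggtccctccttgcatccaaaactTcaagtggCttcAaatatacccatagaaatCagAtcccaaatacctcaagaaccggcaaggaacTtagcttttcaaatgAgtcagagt
Obox6: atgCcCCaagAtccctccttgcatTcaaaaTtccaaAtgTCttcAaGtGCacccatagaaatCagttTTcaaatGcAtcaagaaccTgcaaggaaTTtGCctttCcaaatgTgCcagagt
Over these 120 bases Obox2 differed from Obox1 at 1, Obox5 at 8, Obox3 at 10 and Obox6 at 26. Over the aligned coding sequence, Obox1 shared 98.7% of bases with Obox2, 95.4% with Obox5, 93.8% with Obox3 and 78.5% with Obox6. The authors trimmed reads to 50 bases. Of the distinct 50-base windows of the Obox1 transcripts, 60.5% also occurred in Obox2, and of those of Obox2, 63.8% occurred in Obox1. The levels of Obox1 and Obox2 are therefore uncertain singly, since the way the authors assigned shared reads is not given in the sources used here. For Obox5, Obox3 and Obox6, 5.56%, 1.58% and 0% of windows occurred in another member. Counting every other coding gene, 11.8% of the Obox5 windows were shared, and 6.40% occurred in Gm4745, which RefSeq also names Obox7.

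Part of the promoter was alike in 3 members, of which Obox1 and Obox5 fell and Obox3 rose between the stages. In windows of 300 bases, the best local alignment covered 283 bases of Obox1 and Obox5. It covered 164 bases of Obox1 and Obox3 and 175 of Obox3 and Obox5, so more of the Obox3 window was left unaligned. Whether these promoters set the levels was not tested. A block of 114 bases before the annotated start is printed for Obox1, Obox3 and Obox5 (RefSeq, build GRCm38.p6, 5′ to 3′ in the direction of transcription), and capitals mark positions at which the 3 sequences were not identical.
Obox1, chr7:15547143-15547256, + strand: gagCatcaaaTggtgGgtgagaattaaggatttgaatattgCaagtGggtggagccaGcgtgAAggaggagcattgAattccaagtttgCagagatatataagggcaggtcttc
Obox3, chr7:15639789-15639902, − strand: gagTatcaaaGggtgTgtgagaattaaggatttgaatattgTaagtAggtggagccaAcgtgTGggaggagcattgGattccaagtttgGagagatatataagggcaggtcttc
Obox5, chr7:15750244-15750357, + strand: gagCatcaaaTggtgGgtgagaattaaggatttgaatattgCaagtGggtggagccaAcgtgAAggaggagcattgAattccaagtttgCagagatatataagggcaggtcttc
Of the 114 positions, 104 were identical in all 3 and 10 differed. At 9 of the 10, Obox1 and Obox5 had the same base and Obox3 another. The motif TATATAA, a form of the TATA box, began at -19, -30 and -31 from the annotated start in Obox1, Obox3 and Obox5. It was searched on both strands in windows of 300 bases around the start. There it occurred in 3.22% of 32544 RefSeq promoters and in 3 of the 4 members with an entry (Obox1, Obox2, Obox3 and Obox5). The window of Obox2 from -153 matched that of Obox1 from -250 at all 203 aligned bases. It ended before the part that holds the motif in Obox1, so whether Obox2 has the motif there was not tested. GGATTA, the core bound by Crx-like homeodomains, occurred in 7.06% of promoters and in 1 of the 4 members, Obox3. TAATTG, a general homeodomain core, occurred in 8.01% of promoters and in 0 of the 4.

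The deposited values are FPKM, fragments normalized to exon length and to the mapped fragments of the library, so levels can be compared between genes per length. Every value under 1 had been set to 1, the floor. The table holds no counts, so depth is unknown and precision rests on 2 libraries per group. cDNA was primed with oligo-dT, which reads RNAs with a poly(A) tail, and the sources used here name no reference RNA added for scaling. In such bulk samples, fewer cells of a type and less RNA per cell cannot be told apart. The summed FPKM was between 547752 and 593317 in 7 libraries and 770989 in cKO 2-cell replicate 2, which stood apart. The 2 cKO 2-cell libraries were more than 3-fold apart at 1912 genes, compared with 20 to 199 genes in the other groups. Nothing in the labels says that replicates came from separate mothers, so p-values measure only the spread between these libraries. Usp16, the targeted gene, had an FPKM of 184 and 187 in the WT zygote libraries and of 16.8 and 22.0 in the cKO zygote libraries. In 2-cell embryos its FPKM was 168 and 183 in WT libraries and 168 and 84.8 in cKO libraries.

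In WT zygotes the family, which here means the 5 members of the rule, was made up of 3 abundant mRNAs and 2 near the floor. Gm4745, which RefSeq also names Obox7, is not counted in it. Obox5 had an FPKM of 4252 and 3812 in the 2 libraries. Obox1 had 2089 and 2031, and Obox2 1377 and 1521. These are the members stored by the oocyte. Obox3 had 5.71 and 6.68, and Obox6, which is known for promoting reprogramming when overexpressed in fibroblasts, 2.03 and 1.84. The order was Obox5, Obox1, Obox2, Obox3 and Obox6, and no neighbours in it overlapped. Because Obox1 and Obox2 share most of their windows, their order is less certain than the libraries alone show. The 5 genes together reached 7725 and 7372 FPKM, or 1.30% and 1.32% of the library sum.

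**Figure D1:**
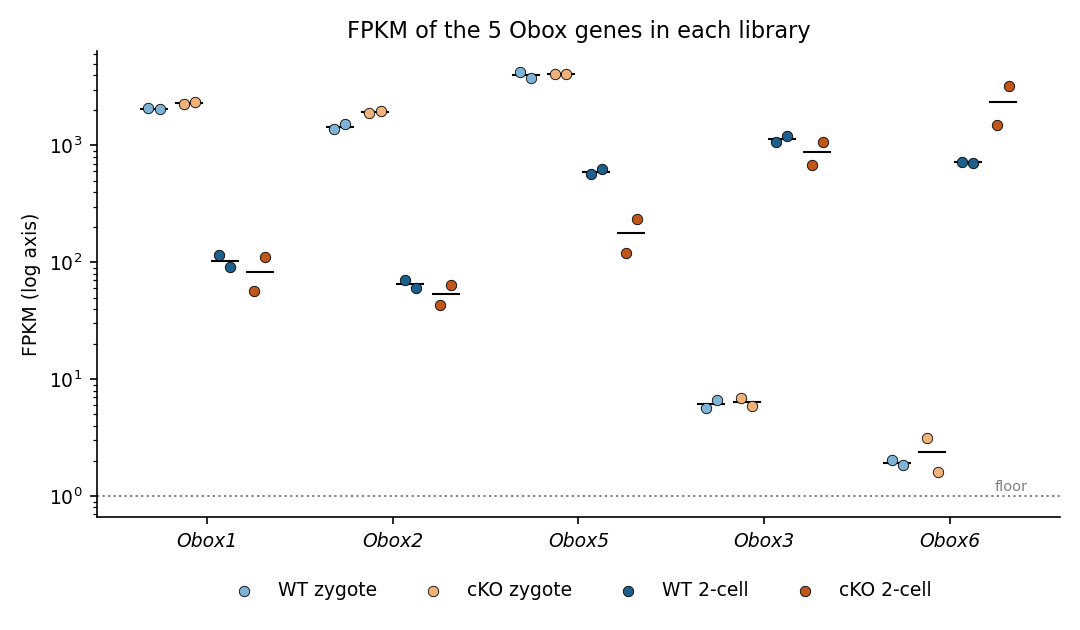
FPKM of each Obox gene (log axis) in the 8 libraries, with 1 point per library, a short line at the mean of each group of 2 and a dotted line at the floor of 1. Obox1, Obox2 and Obox5 are high in all 4 zygote libraries and lower in all 4 2-cell libraries, whereas Obox3 and Obox6 lie below 7 FPKM in zygotes and above 681 in 2-cell embryos.

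From the zygote to the 2-cell stage, all 5 members changed in WT embryos, and the family split into 3 that fell and 2 that rose. Obox1 was left at 115 and 91.7 FPKM, a mean of 103 ± 16.4 (SD, n = 2), compared with 2060 ± 41.1 in zygotes, and was thus 19.9-fold lower. Obox2 was left at 70.8 and 60.8 FPKM and was 22.0-fold lower. Obox5 was left at 567 and 629 FPKM and was 6.74-fold lower, so that 14.8% of its zygote mean remained, compared with 5.01% for Obox1 and 4.54% for Obox2. For each of the 3, both 2-cell libraries lay below both zygote libraries. Obox3 reached 1060 and 1204 FPKM and was 183-fold higher. Obox6 reached 725 and 707 FPKM and was 370-fold higher. No 2-cell library of Obox3 or Obox6 overlapped the zygote libraries. The share of all genes without overlap between the stages was not counted.

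On the log2(FPKM + 1) scale, limma gave differences of -4.31 for Obox1 (SE 0.34, adjusted p = 0.000233), -4.44 for Obox2 (SE 0.24, adjusted p = 0.000105) and -2.75 for Obox5 (SE 0.34, adjusted p = 0.00119). It gave 7.30 for Obox3 (SE 0.26, adjusted p = 8.16e-05) and 7.93 for Obox6 (SE 0.40, adjusted p = 0.000105). All 5 also passed the study's 3-fold rule on group means. Of all genes, 34.2% were called higher and 15.5% lower by limma, and 26.0% higher and 8.78% lower by the 3-fold rule. Of the 14392 genes, 4 had a larger positive difference than Obox6 and 13 than Obox3, while 8 had a larger negative difference than Obox2, 13 than Obox1 and 201 than Obox5. The median difference of all genes was 0.27. As a result of these changes Obox1, Obox2 and Obox5, which held 99.9% of the family's summed FPKM in both WT zygote libraries, held 29.7% and 29.0% in the WT 2-cell libraries. The order there became Obox3, Obox6, Obox5, Obox1 and Obox2, again with no overlap between neighbours. The order of Obox1 and Obox2 is again limited by their shared windows.

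**Figure D2:**
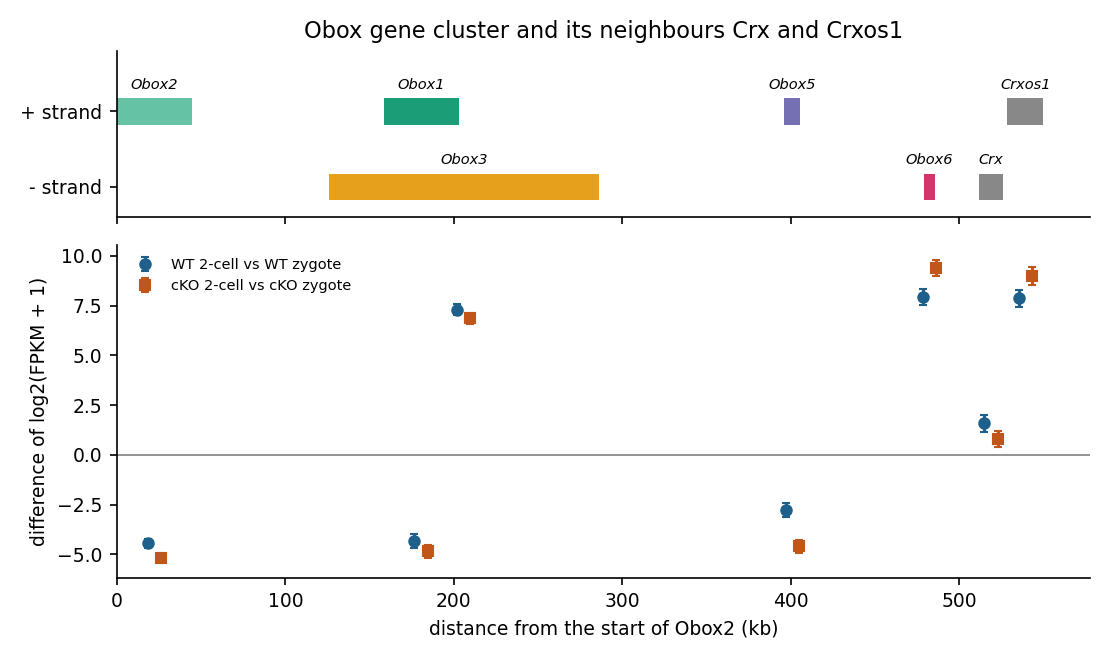
Extent and strand of the Obox genes, Crx and Crxos1 along the chromosome in kb from the start of Obox2 (upper panel), and the difference of log2(FPKM + 1) between 2-cell embryos and zygotes at the middle of each gene for WT (circles) and cKO (squares), with bars of 1 SE (lower panel). The 3 Obox genes on the + strand have negative differences and the 2 on the − strand positive ones in both genotypes, while Crxos1, on the + strand, has positive ones.

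In zygotes, none of the 5 members passed the test between genotypes, and their ratios of means lay between 1.02 and 1.34. Obox5 had an FPKM of 4099 and 4107 in the cKO zygote libraries, inside the range of the WT libraries, and a ratio of means of 1.02. Obox1 had 2249 and 2333, a ratio of 1.11, and Obox2 had 1911 and 1962, a ratio of 1.34. For Obox1 and Obox2 both cKO libraries lay above both WT libraries, but the share of all genes that did so was not counted. Obox3 had 6.88 and 5.96 (ratio 1.04) and Obox6 3.12 and 1.62 (ratio 1.22), both overlapping WT. limma called 0 of the 5 (adjusted p = 1.0 for each). The 95% confidence interval of the log2 difference was -0.17 to 1.00 for Obox2, the widest lay between -0.81 and 1.14 for Obox6, and that of Obox5 was -0.81 to 0.87. Of all genes, 0.0208% were called higher and 0% lower, and without adjustment 324 and 84 genes had a p under 0.05. The 3-fold rule called 0.104% higher and 0.0486% lower. Usp16 itself differed by -3.21 (SE 0.34) and missed the threshold of limma at this stage (adjusted p = 0.191). The direction for Obox3, Obox5 and Obox6 reversed when single zygote libraries were left out.

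In cKO embryos too, all 5 members changed from the zygote to the 2-cell stage, in the same directions as in WT. Obox1 was left at 56.3 and 110 FPKM and was 27.5-fold lower, Obox2 at 43.5 and 63.6 FPKM and was 36.1-fold lower. Obox5 was left at 121 and 234 FPKM and was 23.1-fold lower, so that 4.33% of its zygote mean remained. Obox3 reached 681 and 1081 FPKM and was 137-fold higher. Obox6 reached 1491 and 3242 FPKM, a mean of 2367 ± 1238 (SD, n = 2), and was 999.6-fold higher. Its zygote mean lay near the floor, and this fold was 630 without cKO 2-cell replicate 2 and 1463 without cKO zygote replicate 1, with the nearest libraries 478-fold apart. In limma the adjusted p was between 5.48e-05 and 0.000169 for the 5, when 24.6% of all genes were called higher and 27.1% lower. The 3-fold rule called 22.8% higher and 19.2% lower. In contrast to WT 2-cell embryos, Obox6 stood above Obox3. The libraries of Obox1 and Obox2 overlapped, so these genes could not be ordered even apart from their shared windows.

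**Figure D3:**
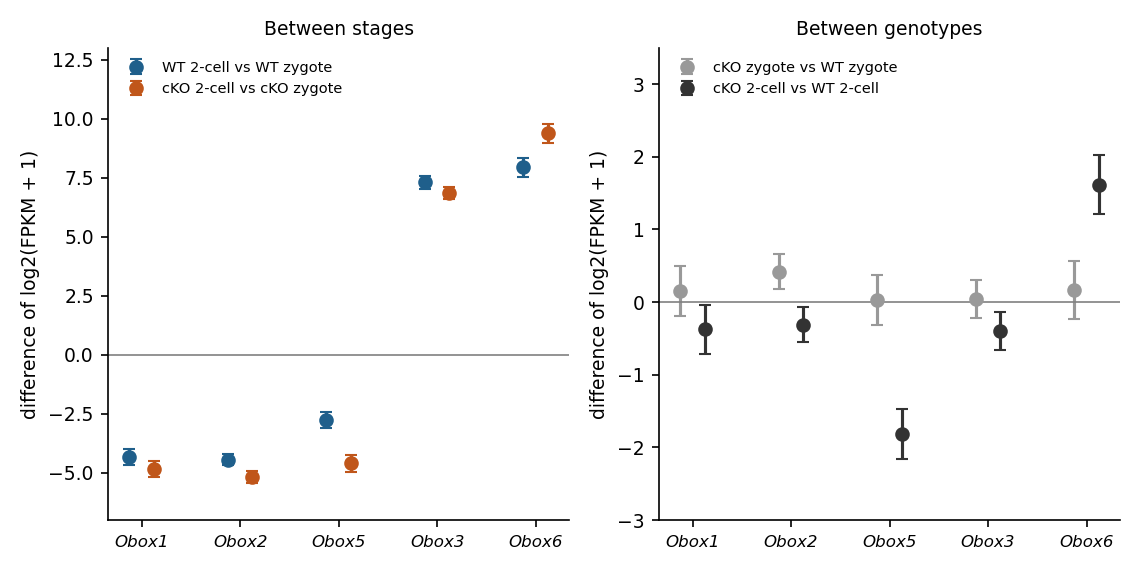
Differences of log2(FPKM + 1) for each Obox gene from the model of all 8 libraries, with bars of 1 SE, between stages in WT and cKO embryos (left) and between genotypes in zygotes and 2-cell embryos (right). Between genotypes, only Obox5 (-1.82) and Obox6 (1.62) at the 2-cell stage passed the threshold of limma.

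At the 2-cell stage, maternal loss of Usp16 went with less Obox5 and more Obox6. Obox5, a stored member, had 121 and 234 FPKM in cKO libraries compared with 567 and 629 in WT libraries. Its mean was 178 ± 80.0 compared with 598 ± 43.6 (SD, n = 2 each), 3.36-fold lower, and the nearest libraries were 2.42-fold apart. Obox6, an embryonic member, had 1491 and 3242 FPKM compared with 725 and 707, 3.31-fold higher, and the nearest libraries were 2.06-fold apart. Without cKO 2-cell replicate 2 it was 2.08-fold higher. The groups did not overlap for either gene. The share of all genes whose groups did not overlap here was not counted, so this describes the libraries only. Obox3, the other embryonic member, had 681 and 1081 FPKM compared with 1060 and 1204, a ratio of 0.778 with overlapping libraries. The other stored members overlapped as well, with ratios of 0.806 for Obox1 and 0.814 for Obox2.

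limma called Obox5 lower, with a log2 difference of -1.82 (SE 0.34, 95% confidence interval -2.66 to -0.98, adjusted p = 0.0121), and Obox6 higher, with 1.62 (SE 0.40, 95% confidence interval 0.64 to 2.60, adjusted p = 0.0278). Of all genes 24.6% were called lower and 6.16% higher, and by the 3-fold rule 13.5% lower and 2.84% higher. The 887 genes called higher by limma became 426 without WT 2-cell replicate 2 and 1715 without cKO 2-cell replicate 1, and leaving out any other library except WT zygote replicate 1 also moved them by over 1.5 times. By the 3-fold rule 409 became 658 without cKO 2-cell replicate 1. In the model of all 8 libraries, 838 of the 14392 genes had a larger negative difference than Obox5 and 251 a larger positive difference than Obox6. Obox1, Obox2 and Obox3 did not pass, at -0.38 (95% confidence interval -1.20 to 0.45, adjusted p = 0.433), -0.31 (-0.90 to 0.27, adjusted p = 0.362) and -0.40 (-1.03 to 0.24, adjusted p = 0.293). These 3 values lay near the median of all genes, -0.30, and turned positive, to between 0.08 and 0.16, after libraries were scaled by their median ratio. Under that scaling the call of Obox5 was also lost (-1.34, adjusted p = 0.0988), while Obox6 remained called (adjusted p = 0.0420), and all genes split into 1747 lower and 1437 higher instead of 3538 and 887. Neither call was made when only the 4 2-cell libraries were fitted (adjusted p = 0.109 for Obox5 and 0.179 for Obox6), a fit that called 0 of all genes, or without either WT 2-cell library. Without cKO 2-cell replicate 2, Obox6 was at 1.06 (adjusted p = 0.0536) and Obox5 at -2.29 (adjusted p = 0.00254), and Obox1, Obox2 and Obox3 were called lower. Without any single zygote library Obox6 missed the threshold and Obox5 kept it.

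**Figure D4:**
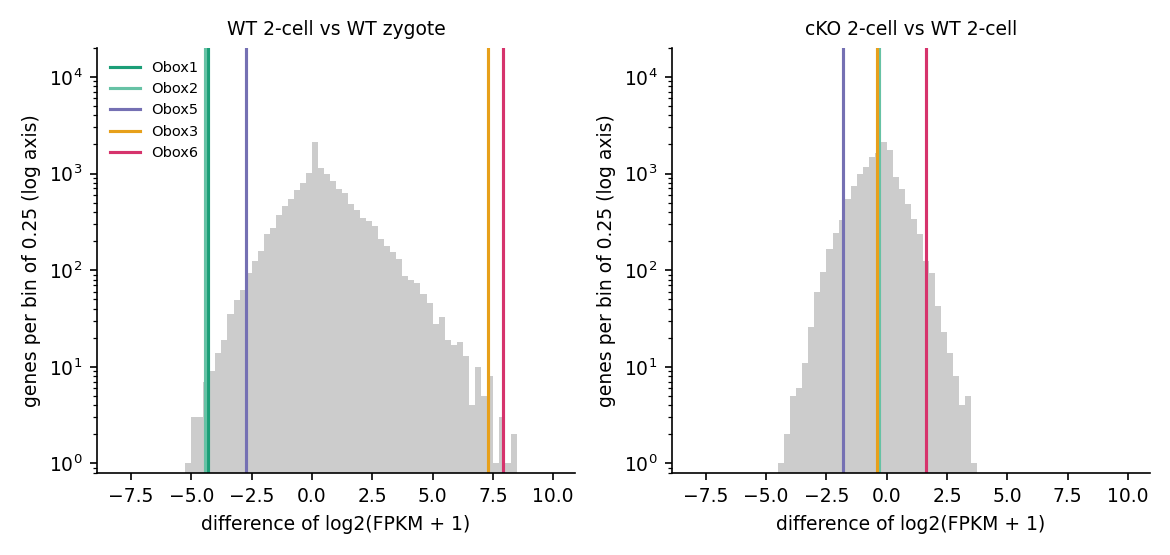
Number of genes (log axis) per bin of 0.25 of the difference of log2(FPKM + 1) for all 14392 genes, for the 2 stages of WT embryos (left) and the 2 genotypes of 2-cell embryos (right), with a line at each Obox gene. The members lie in both tails on the left, whereas on the right Obox1, Obox2 and Obox3 lie together near the middle and Obox5 and Obox6 to either side.

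The test of whether the genotype difference itself differed between the stages gave -1.85 for Obox5 (SE 0.49, adjusted p = 0.0607) and 1.46 for Obox6 (SE 0.57, adjusted p = 0.146). None of the 5 passed it, when 11.8% of all genes did (227 higher and 1474 lower). That share rested on single libraries: without any of the 4 zygote libraries 0 genes were higher and 1 to 2 lower, and there were 1100 higher and 3517 lower without cKO 2-cell replicate 1 and 966 and 2615 without replicate 2. At unadjusted p these were 0.00873 and 0.0419, and Obox1, Obox2 and Obox3 gave 0.310, 0.0737 and 0.276. It is therefore not shown at this threshold that the loss of Obox5 or the gain of Obox6 from zygote to 2-cell embryo differed between genotypes. With a filter at a mean of 5 FPKM, Obox5 passed (adjusted p = 0.0380).

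Ratios of members within a library do not depend on how the library was scaled. Obox5 over Obox1 was 1.76 to 2.04 in the 4 zygote libraries, 4.94 and 6.86 in the WT 2-cell libraries, and 2.15 and 2.13 in the cKO 2-cell libraries. Obox5 over Obox2 was 2.09 to 3.09 in zygotes, 8.0 and 10.3 in WT 2-cell embryos and 2.78 and 3.68 in cKO 2-cell embryos. Both ratios were thus higher in the WT 2-cell libraries than in all 4 zygote libraries, and in the cKO 2-cell libraries they lay below both WT 2-cell libraries. Obox1 over Obox2, whose reads cannot be fully separated, was 1.18 to 1.52 in zygotes and 1.29 to 1.73 in all 2-cell libraries. Obox6 over Obox3 was 0.684 and 0.587 in WT and 2.19 and 3.0 in cKO 2-cell libraries. With 2 libraries against 2, an exact two-sided permutation test of such a ratio cannot give a p under 0.333.

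Obox6 was the largest part of the family in cKO 2-cell embryos. The summed FPKM of the 5 genes was 8269 and 8409 in cKO zygotes, and 2394 and 4731 in cKO 2-cell embryos compared with 2538 and 2692 in WT. Obox6 alone made up 62.3% and 68.5% of the sum in cKO 2-cell libraries and 28.6% and 26.3% in WT. Obox1, Obox2 and Obox5 together made up 9.24% and 8.63% in cKO, compared with 29.7% and 29.0% in WT. These shares differed little between the cKO replicates although their sums were far apart. As a share of all FPKM in a library, the family stood at 0.411% and 0.614% in cKO and at 0.439% and 0.491% in WT 2-cell embryos.

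**Figure D5:**
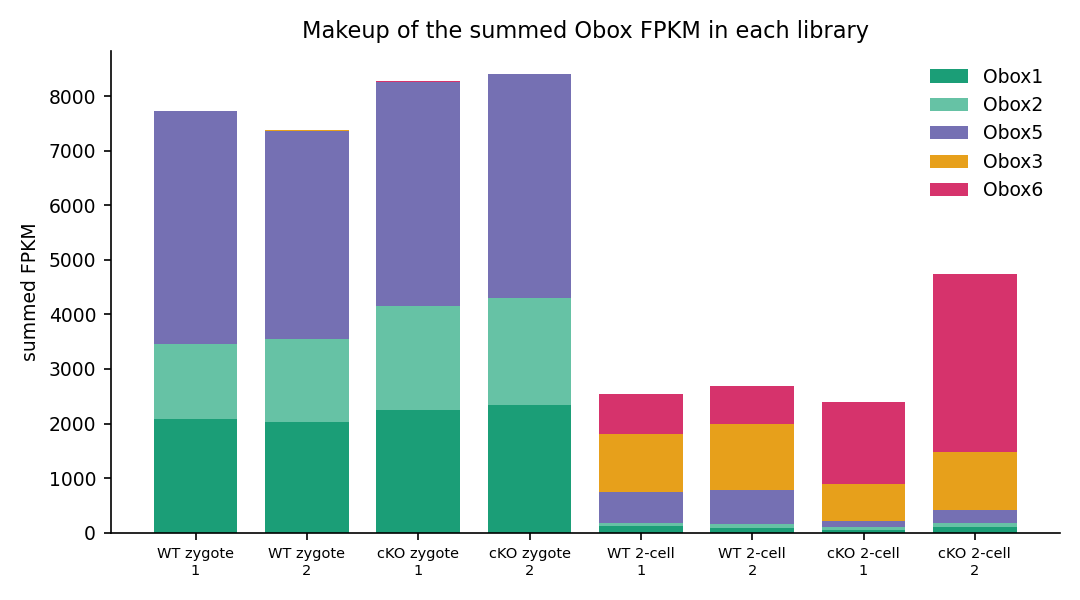
Summed FPKM of the 5 Obox genes in each library (linear axis from 0), divided by gene, with 1 bar per library. Obox3 and Obox6 are too low to see in zygotes, and Obox6 takes 62.3% and 68.5% of the bars of cKO 2-cell embryos.

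The genes whose profile over the 8 libraries was most like that of a member were found by the root mean square difference of log2(FPKM + 1), each gene centred on its own mean. Closest to Obox6 was Crxos1 (0.22), a homeobox gene of the same cluster, followed by Gm11517 (0.24) and B020004C17Rik (0.45). B020004C17Rik lay at 1.0 to 1.21 FPKM in zygotes, at or near the floor. Crxos1 had 2.19 and 2.04 FPKM in WT zygotes, 788 and 658 in WT 2-cell embryos, and 1455 and 3810 in cKO 2-cell embryos. Its log2 difference between genotypes at the 2-cell stage was 1.71 (SE 0.44, adjusted p = 0.0321). Obox6 over Crxos1 was 0.851 to 1.074 in all 4 2-cell libraries. Crxos1, at chr7:16467966-16489379, lies 42.9 kb from Obox6, and Crx lies between them. Crxos1 shares 65.1% of aligned coding bases with Obox6. This was not particular to Obox6, with 67.0% for Obox5, 64.6% for Obox3, 62.6% for Obox1 and 62.0% for Obox2. Crx, which acts in photoreceptors, had 26.7 and 21.3 FPKM in WT and 6.33 and 14.8 in cKO 2-cell embryos (adjusted p = 0.0710). The profile of Obox3 was at place 23 by likeness to that of Obox6 (1.08).

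Closest to Obox3 were H47 (0.10), which encodes the selenoprotein Selenos of the endoplasmic reticulum, Gm12789 (0.12) and Bex6 (0.26). In zygotes these genes lay at 1.0 to 1.34 FPKM, at or near the floor, so the floor limits the size of their rise and this likeness. Closest to Obox5 were Gm13023 (0.17), named Pramel25 in RefSeq, Magea10 (0.23) and E330034G19Rik (0.25). Closest to Obox1 were 2010002M12Rik (0.15), named Ifit1bl2 in RefSeq, Gm17830 (0.17) and Obox2 (0.19). Closest to Obox2 were Obox1 (0.19), 2010002M12Rik (0.21) and 1300002E11Rik (0.28). Since Obox1 and Obox2 share most of their sequence windows, their likeness is not independent. The other stored members were at places 321 and 499 by likeness to Obox5.

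Other PRD-class homeobox genes, the class to which the family belongs, numbered 31 measured of 63 listed. In WT embryos 15 were called higher and 2 lower in 2-cell embryos than in zygotes, with a median log2 difference of 0.66 compared with 0.27 over all genes. In cKO embryos 3 were called higher and 4 lower (median 0). Over all genes 34.2% were called higher and 15.5% lower in WT, and 24.6% and 27.1% in cKO. Between genotypes 0 of 31 were called in zygotes, when 0.0208% of all genes were called higher and 0% lower. In 2-cell embryos 1, Crxos1, was higher and 13 were lower in cKO, with a median of -0.64 compared with -0.30 over all genes. At the floor in both libraries were 19 of the 31 in WT zygotes and 19 in cKO zygotes. In 2-cell embryos these numbered 2 in WT and 17 in cKO, so part of the calls in this list rest on values at the floor. Nobox, a regulator of oocyte growth, had 16.3 and 14.8 FPKM in WT and 5.81 and 6.88 in cKO 2-cell embryos (adjusted p = 0.0216). Sebox, another oocyte homeobox gene, had 395 and 203 compared with 20.2 and 121 (adjusted p = 0.0649). Over all genes, 24.6% were called lower and 6.16% higher in this comparison, and median-ratio scaling brought that split to 1747 lower and 1437 higher. Obox6, not counted in the list, was at 1.62.

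Of factors proposed to activate the zygotic genome, 16 of 17 were measured. In WT 10 were called higher and 1 lower in 2-cell embryos (median 1.83), and in cKO 9 higher and 2 lower (median 1.91). Over all genes 34.2% were called higher and 15.5% lower in WT (median 0.27), and 24.6% and 27.1% in cKO (median 0). Between genotypes at the 2-cell stage 3 were higher (Dppa2, Dppa4 and Nfyb) and 1 lower (Zscan4d), with a median of 0.03. Over all genes 6.16% were called higher and 24.6% lower at that stage, with a median of -0.30. Between genotypes 0 of the list were called in zygotes, when 0.0208% of all genes were called higher and 0% lower. Dppa2, a chromatin factor that acts upstream of early zygotic genes, had 221 and 203 FPKM in WT and 817 and 618 in cKO 2-cell embryos (adjusted p = 0.00512). Its partner Dppa4 had 236 and 264 compared with 657 and 483 (adjusted p = 0.0183). Klf17, a zinc finger factor supplied by the oocyte, had 208 and 207 compared with 230 and 173, which did not pass (adjusted p = 0.879). Nfyc, a subunit of the CCAAT-binding factor NF-Y, had 170 and 149 compared with 166 and 240 and did not pass either (adjusted p = 0.321).

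Of genes of the transient 2-cell burst of transcription, 17 of 27 were measured. In WT 15 were called higher and 0 lower in 2-cell embryos (median 3.74, compared with 34.2%, 15.5% and 0.27 over all genes), and in cKO 12 higher and 1 lower (median 2.39, compared with 24.6%, 27.1% and 0). Between genotypes 0 were called in zygotes, when 0.0208% of all genes were called higher and 0% lower. At the 2-cell stage 0 were higher and 11 lower in cKO, with a median of -1.39. Over all genes 6.16% were called higher and 24.6% lower at that stage, with a median of -0.30. Zfp352, a zinc finger gene, had 280 and 468 FPKM in WT and 125 and 103 in cKO 2-cell embryos (adjusted p = 0.0141), and Tmem92 had 159 and 192 compared with 28.9 and 64.7 (adjusted p = 0.0144). Sp110, a nuclear body protein gene, had 1147 and 1024 compared with 1340 and 1153 and did not pass (adjusted p = 0.598). Beside the median of -1.39, the log2 differences of the members activated at the same stage were -0.40 for Obox3 and 1.62 for Obox6.

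Oocyte mRNAs other than the stored Obox genes were followed through 12 marker genes, all of them measured. In WT 0 were called higher and 8 lower in 2-cell embryos (median -1.28), and in cKO 0 higher and 11 lower (median -2.83). Over all genes 34.2% were called higher and 15.5% lower in WT (median 0.27), and 24.6% and 27.1% in cKO (median 0). Between genotypes at the 2-cell stage 0 were higher and 7 lower in cKO (median -1.14). Over all genes 24.6% were called lower and 6.16% higher at that stage, with a median of -0.30. In zygotes 0 were called between genotypes, when 0.0208% of all genes were called higher and 0% lower. Bmp15, a growth factor secreted by the oocyte, had 531 and 536 FPKM in WT and 79.7 and 67.5 in cKO 2-cell embryos (adjusted p = 0.000936). Gdf9, the related factor whose promoter drives Cre, had 195 and 304 compared with 266 and 367 and did not pass (adjusted p = 0.436). The summed level of the list was 4977 to 6120 FPKM in WT and 1110 to 2609 in cKO 2-cell embryos. Most of the WT sum came from Oosp1, which had 4936 and 3711 FPKM in WT and 544 and 1876 in cKO 2-cell embryos. Obox5 was thus lower in cKO together with 7 of these 12 markers, and their part in it was not tested.

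Markers of other cells had low summed levels. Of 14 cumulus and granulosa markers 3 were measured, and their summed level was 24.3 to 28.7 FPKM in WT zygotes, 24.6 to 24.8 in cKO zygotes, 4.38 to 10.3 in WT and 3.0 to 3.32 in cKO 2-cell embryos. Of 9 sperm markers 5 were measured, with summed levels of 39.7 to 49.2, 42.5 to 47.3, 29.2 to 40.4 and 7.94 to 15.7 in the same order. Foxl2 and Tnfaip6, which define granulosa and cumulus cells, were at the floor in all 4 zygote libraries. Cyp19a1, the other measured marker of that list, had 26.7 and 22.3 FPKM in WT and 22.8 and 22.6 in cKO zygotes. In WT 2-cell embryos Tnfaip6 had 1.83 and 7.45 FPKM and Foxl2 1.55 and 1.06. By limma, 1 cumulus and granulosa marker (Cyp19a1) was lower in 2-cell embryos than in zygotes of both genotypes and 0 differed between genotypes. Of the sperm markers, 1 was higher (Tnp1) and 1 lower (Prm2) in WT 2-cell embryos than in zygotes, and 2 were lower in cKO (Prm2 and Odf2). Between genotypes 2 were lower in cKO than in WT 2-cell embryos (Tnp1 and Odf2), and 0 differed between zygotes. Over all genes 34.2% were called higher and 15.5% lower between the stages in WT, and 24.6% and 27.1% in cKO. Between genotypes 6.16% of all genes were called higher and 24.6% lower at the 2-cell stage, and 0.0208% and 0% in zygotes.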

How the data were processed

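RNA-seq was measured in 8 libraries of mouse embryos, 2 in each of 4 groups, made by Smart-seq2 from 10 embryos each. The 7 H2AK119ub1 ChIP-seq samples of the series were not analysed here. The authors trimmed reads to 50 bases, mapped them to mm9 with TopHat2 2.1.1 and computed FPKM with Cufflinks 2.2.1, and the versions are also in the submitters' processing notes. They set FPKM values under 1 to 1 and dropped genes under 1 in all samples, and deposited these FPKM values. The annotation and any further normalization are not given in the sources used here, depth is unknown, and Smart-seq2 does not mark strand.

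From these values, groups were compared by the study's 3-fold rule on group means, and by limma 3.58.1 (R 4.3.3) on log2(FPKM + 1) with a trend, fitted to the 4 groups together (4 residual degrees of freedom), two-sided, adjusted by Benjamini-Hochberg over all 14392 genes at 0.05. Changes on this scale are understated for low genes. The 4 groups share 1 estimate of the spread, although the cKO 2-cell libraries differed more than the others. The model was tested on simulated data. Levels, ratios and sequences were computed in Python 3.11.15 with pandas 2.3.3, numpy 2.4.6 and scipy 1.17.1. Alternatives covered the pseudocount, a filter on the mean, median-ratio scaling, the threshold, the libraries in the model, the replicate number as a block and leaving out each library.

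Named genes were all members, Usp16, Gapdh, the 3 most alike genes per member and up to 4 genes per list by mean FPKM, besides genes named because a list call held 4 or fewer. Members and lists were chosen with earlier results of these data known. All 5 members matched GENCODE M1 on mm9 by symbol, and 4 had a promoter in the RefSeq table (GRCm38.p6). Builds were not mixed. Gapdh had an FPKM of 13.9 to 39.8 in zygotes and 47.7 to 61.5 in 2-cell embryos.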

Additional observations from a re-analysis of the deposited data

Results flagged for a closer look

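Usp16, the targeted gene, differed between genotypes by -3.21 on the log2(FPKM + 1) scale in zygotes and by -0.55 in 2-cell embryos. The difference of the 2 was 2.65 (SE 0.48), and it passed limma's interaction test (adjusted p = 0.0251). Both cKO 2-cell libraries (168 and 84.8 FPKM) lay above both cKO zygote libraries (16.8 and 22.0 FPKM).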

How the results depend on the processing

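All 5 members stayed called, in the same directions, from zygote to 2-cell embryo under each of 14 alternatives of limma, with a highest adjusted p of 0.0195 in WT and 0.0144 in cKO. At the 2-cell stage 2 members were called between genotypes, when 3538 of all genes were lower and 887 higher in cKO. After median-ratio scaling 1 was called, when 1747 genes were lower and 1437 higher. With only the 4 libraries of the 2 groups, 0 members and 0 of all genes were called. Without single libraries, the log2 difference lay between -2.29 and -1.35 for Obox5 and between 1.06 and 2.18 for Obox6. Obox5 was called in 10 of the 14 (log2 difference -2.29 to -1.34, adjusted p 0.00254 to 0.109) and Obox6 in 6 of the 14 (1.06 to 2.18, adjusted p 0.00776 to 0.179). Under the 3-fold rule 2 passed, compared with 1 after scaling, 0 when every cKO library had to pass against every WT library, and 1 to 2 without single libraries (1 without either cKO 2-cell library). The interaction called 0 members, when 227 of all genes were higher and 1474 lower. With a filter at a mean of 5 FPKM it called 1 member, when 196 genes were higher and 996 lower. Without single libraries, the interaction lay between -2.32 and -1.37 for Obox5 and between 0.90 and 2.02 for Obox6.

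Directions reversed for differences that were not called. After scaling, Obox1, Obox2 and Obox3 were at 0.10, 0.16 and 0.081 between genotypes in 2-cell embryos, and the interaction of Obox3 was 0.060. Without single libraries, Obox1 lay between -0.85 and 0.10 in 2-cell embryos, and in zygotes Obox3 lay between -0.053 and 0.14, Obox5 between -0.051 and 0.11 and Obox6 between -0.16 and 0.49. Apart from the settings' own construction, the cause was not tested.

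Same-numbered libraries deviated together in zygotes (correlation 0.498 across genes) but not in 2-cell embryos (-0.239), and the labels name no pairing. With a replicate block, 5 members were called between stages in each genotype, 0 between zygotes, 2 between 2-cell embryos (adjusted p = 0.0214 for Obox5 and 0.0470 for Obox6) and 0 in the interaction. The crossed pairing, added after seeing the data, gave the same numbers of members, with 932 genes higher and 3540 lower in cKO 2-cell embryos.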

Other observations

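Gm4745, which RefSeq lists with the synonym Obox7, was outside the rule by its symbol and was chosen after its values were seen. It lay on the + strand at chr7:15245057-15251344, 688 kb from Obox2, and shared 95.9% of aligned coding bases with Obox5. Its FPKM was 538 and 508 in WT zygotes, 573 and 577 in cKO zygotes, 86.1 and 85.1 in WT 2-cell embryos and 44.0 and 81.0 in cKO 2-cell embryos. It was lower in 2-cell embryos than in zygotes (log2 difference -2.60 in WT, adjusted p = 0.000839, and -3.25 in cKO, adjusted p = 0.000314). Between genotypes at the 2-cell stage it differed by -0.51 (adjusted p = 0.248 by limma). Obox5 over Gm4745 was 7.12 to 7.90 in zygotes, 6.58 and 7.39 in WT 2-cell embryos, and 2.76 and 2.89 in cKO 2-cell embryos.

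The sequence GTGAGAATTAAGGATTTGAATATTG, the longest run of identical bases (25) in the promoter block of Obox1, Obox3 and Obox5, was searched after the block had been seen. It occurred on either strand in 5 of 32544 RefSeq promoters (0.0154%). These were the 4 members with an entry and Obox7. Its presence in Obox1, Obox3 and Obox5 was fixed by the way it was chosen. The window of Obox2 matched that of Obox1 at all 203 aligned bases, a stretch that holds the sequence. The window of Obox7 matched that of Obox5 at 97.8% of 271 aligned bases. The count therefore reflects how alike these promoters are and is no separate evidence of a motif. It stands in the promoters of Obox1, Obox2 and Obox5, whose mRNAs fell between the stages, and of Obox3, whose mRNA rose.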
